A study of Mus musculus with 34 samples.

Results

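The outer dynein arm docking complex is the set of 5 proteins that fixes the outer row of dynein motors to the microtubule doublets of a motile cilium. Its genes in the mouse are Ccdc114, Ccdc151, Armc4, Ttc25 and Efcab1, the last of which encodes calaxin. They were picked by name, and all 5 were found by Ensembl identifier among the 21647 genes of the count table. Bulk RNA sequencing was done on 34 libraries of ependymal cells, the multiciliated cells lining the brain ventricles, differentiated ex vivo. Per the labels, the cells came from the lateral ventricular walls of mouse embryos at E18.5, were grown until confluent and were then kept 4 days without serum. The 6 groups were Rfx1 knockout (n = 4) and wild type (n = 4), Rfx2 knockout (n = 6) and wild type (n = 8), and Rfx3 knockout (n = 6) and wild type (n = 6), every sample being labelled C57BL/6 in its strain field and OF1 in its title. The labels do not say how the alleles were made, or whether the replicates of a group came from separate embryos or cultures, so a p-value here measures only the spread between libraries. Line and culture or sequencing batch cannot be told apart.

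As background, Ccdc114 and Ccdc151 are coiled-coil proteins that form the elongated core of the complex along the doublet. Armc4 is built of armadillo repeats, Ttc25 carries tetratricopeptide repeats, and calaxin is a calcium-binding EF-hand protein. In humans, loss of these docking proteins causes primary ciliary dyskinesia, with outer arms that are missing or reduced. Outer arm dyneins set much of the beat frequency of a cilium, and beating ependymal cilia move cerebrospinal fluid. Rfx1, Rfx2 and Rfx3 encode transcription factors that bind the X-box, a palindromic DNA motif found before many ciliary genes.

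In the GENCODE M21 annotation (GRCm38), Ccdc114 (ENSMUSG00000040189) lies on the plus strand of chromosome 7 from 45924072 to 45948963, and Ccdc151 (ENSMUSG00000039632) on the minus strand of chromosome 9 from 21989871 to 22002634. Ttc25 (ENSMUSG00000006784) lies on the plus strand of chromosome 11 from 100545607 to 100572568. Efcab1 (ENSMUSG00000068617) lies on the plus strand of chromosome 16 from 14906606 to 14981371, and the position of Armc4 is given with its values. None of the 5 overlapped another gene of the count table. Ccdc114 shared 103 bases, 1.69% of its exon length, with the antisense gene Gm45442, and whether the counting used strand is not given in the sources used here.

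RefSeq promoter windows, which run from 250 bases before to 50 bases after a transcript start, were at hand for Ccdc114 and Ccdc151. They are shown because the knocked-out genes encode factors that bind the X-box. Each is written 5′ to 3′ on the gene's strand, with capitals on the letters closest to the X-box in the palindromic forms searched (GTTNCCNGGNAAC, GTTNCCNNGGNAAC and GTTNCCNNNGGNAAC, both strands).
Ccdc151, GRCm38.p6 chr9:22002585-22002884, minus strand: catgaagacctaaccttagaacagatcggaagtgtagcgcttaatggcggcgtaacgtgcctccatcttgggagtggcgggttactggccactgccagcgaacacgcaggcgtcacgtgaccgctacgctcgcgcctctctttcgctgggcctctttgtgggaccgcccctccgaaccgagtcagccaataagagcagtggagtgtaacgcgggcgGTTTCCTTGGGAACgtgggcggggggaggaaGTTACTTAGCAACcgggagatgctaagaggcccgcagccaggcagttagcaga
Ccdc114, GRCm38.p6 chr7:45923965-45924264, plus strand: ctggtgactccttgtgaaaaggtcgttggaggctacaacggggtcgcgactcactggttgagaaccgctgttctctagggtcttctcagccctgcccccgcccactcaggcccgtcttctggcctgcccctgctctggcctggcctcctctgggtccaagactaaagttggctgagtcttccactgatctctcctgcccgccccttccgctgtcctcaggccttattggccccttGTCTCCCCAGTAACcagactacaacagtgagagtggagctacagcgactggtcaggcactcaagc

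The Ccdc151 window held an exact match to GTTNCCNNGGNAAC, GTTTCCTTGGGAAC, whose first base lies 34 bases before the start. A second run in the same window, GTTACTTAGCAAC, matched 8 of the 10 fixed letters of GTTNCCNGGNAAC. The Ccdc114 window held no closer match than GTCTCCCCAGTAAC, with 8 of the 10 fixed letters, 15 bases before the RefSeq start used for the window. Among 32851 windows of the same length, 0.451% held an exact match to GTTNCCNNGGNAAC and 0.776% an exact match to any of the 3 forms, so the Ccdc151 run was rare. Up to 2 mismatches were found in 29.7% of windows, so a match of the Ccdc114 kind was common. A match describes letters and shows no binding.

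Raw counts of the 5 genes ran from 31, for Efcab1, to 6655, for Ccdc114, in libraries of 18.2 to 53.4 M counted reads. Levels below are in CPM, the count of a gene divided by the size of its library, after TMM scaling over all 34 libraries. Per kilobase of exon, the wild-type levels followed the order Ccdc151, Ccdc114, Ttc25, Efcab1 and Armc4. In the Rfx3 wild types they were 40.2 ± 3.06 CPM per kb for Ccdc151 (SD, n = 6), 21.1 ± 1.13 for Ccdc114, 12.9 ± 1.15 for Ttc25, 11.4 ± 2.84 for Efcab1 and 4.75 ± 0.994 for Armc4. Ccdc114 exceeded Ttc25 in 34 of 34 libraries and Ccdc151 exceeded Ccdc114 in 33 of 34. Ttc25 and Efcab1 were not separated, with Ttc25 the higher in 26 of 34 libraries and in 2 of the 4 Rfx1 wild types. Efcab1 exceeded Armc4 in 32 of 34 libraries, and both exceptions were Rfx3 knockouts.

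**Figure D1:**
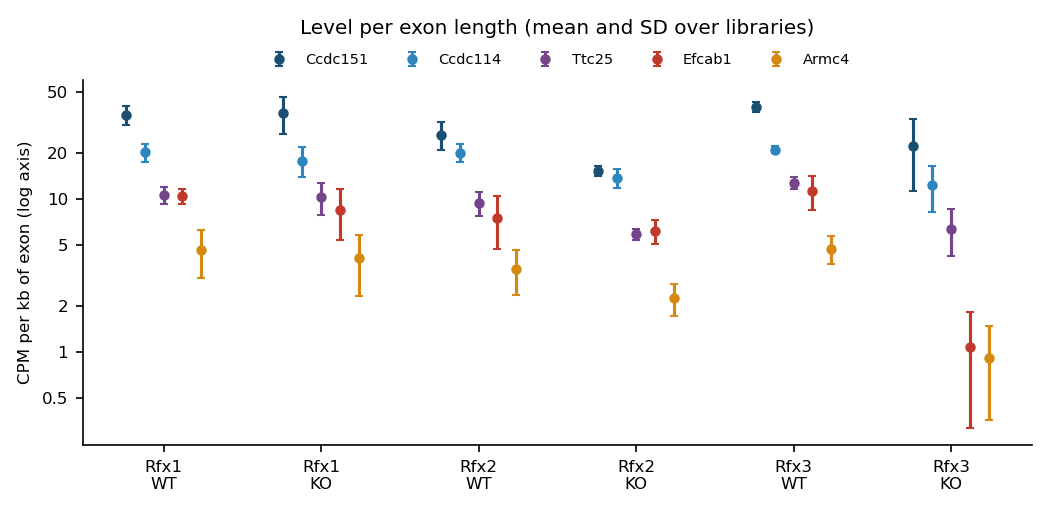
Level of each docking gene per kilobase of exon (CPM per kb, log axis) in the 6 groups, as mean and SD over libraries. The genes keep their order in the wild types, and in the Rfx3 knockouts Efcab1 falls to the level of Armc4, 1.08 against 0.917 CPM per kb.

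The wild types of the 3 lines were compared in a fit of all 34 libraries, where 57.7% of all genes tested passed an adjusted p of 0.05 (edgeR quasi-likelihood test, Benjamini-Hochberg adjustment). Ccdc151 (adjusted p = 0.0281) and Ttc25 (adjusted p = 0.0342) were among them, a share of the docking genes below that of all genes. Ccdc151 averaged 89.9 ± 13.2 CPM in Rfx1 (SD, n = 4), 66.7 ± 14.2 in Rfx2 (n = 8) and 101 ± 7.68 in Rfx3 wild types (n = 6). Neither call held when Rfx2 wild-type replicate 1 (0.0596 and 0.0610), Rfx2 wild-type replicate 5 (0.0572 and 0.0604) or Rfx3 wild-type replicate 3 (0.0543 and 0.0804) was left out. Ttc25 alone also lost its call without Rfx3 wild-type replicate 1 (0.0542), 5 (0.0609) or 6 (0.0563), and Efcab1 gained one without Rfx2 wild-type replicate 3 (0.0487). Ccdc114 averaged 124 ± 16.8, 123 ± 16.7 and 129 ± 6.85 CPM in the 3 wild types (SD; adjusted p = 0.912), which does not show equal levels.

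Rfx1 knockout left the docking genes without a call. The targeted gene itself, Rfx1, was at 19.9, 30.2, 28.8 and 22.4 CPM in the 4 knockouts and at 65.0, 52.8, 71.8 and 77.4 CPM in the 4 wild types, groups that did not overlap, with a log2 fold change of -1.40 (SE 0.160, adjusted p = 0.0687). The edgeR quasi-likelihood test called 0 of the 5 docking genes and 1 of all 13830 genes tested (0.00723%), and that gene, Scoc, is named after its value was seen. At an unadjusted p under 0.05 there were 0 docking genes and 281 genes in all, and DESeq2 also called 0 docking genes.

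Ccdc114 was at 97.7, 110, 142 and 85.7 CPM in the Rfx1 knockouts and at 126, 99.5, 137 and 132 CPM in the wild types. Ccdc151 was at 80.2, 96.8, 125 and 67.2 CPM against 84.4, 76.4, 91.3 and 107 CPM. Efcab1 was at 35.9, 38.5, 55.5 and 21.8 CPM against 52.8, 40.2, 47.0 and 45.1 CPM. The groups overlapped for each of these genes, and knockout replicate 3 was the highest and replicate 4 the lowest of the 4 knockouts for all 5 docking genes. The log2 fold changes were -0.19 for Ccdc114, 0.04 for Ccdc151, -0.04 for Ttc25, -0.19 for Armc4 and -0.29 for Efcab1, with standard errors from 0.157 to 0.330 (every adjusted p at 0.9998).

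In the Rfx2 knockouts, 4 of the 5 docking genes fell, each to between 56.9% and 67.7% of wild type, and Efcab1 did not pass the test. Of all 14305 genes tested, 32.3% were called, 18.4% lower and 13.9% higher. The targeted gene, Rfx2, was at 43.3 to 55.3 CPM in the 6 knockouts and at 83.4 to 126 CPM in the 8 wild types (log2 fold change -1.13, SE 0.0983). In bulk RNA, fewer multiciliated cells and less RNA in each of them cannot be told apart, here or below.

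Ccdc151 had the smallest p of the 5 genes in this line. It was at 33.4, 40.2, 36.5, 41.8, 40.2 and 39.5 CPM in the Rfx2 knockouts and at 46.9, 70.2, 91.5, 75.9, 49.5, 67.0, 63.2 and 69.5 CPM in the wild types. All 6 knockouts lay below all 8 wild types, and the log2 fold change was -0.81 (SE 0.133, adjusted p = 0.000494).

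Ttc25 behaved in the same way. It was at 31.2, 39.2, 36.5, 39.5, 37.0 and 35.0 CPM in the Rfx2 knockouts and between 42.4 and 73.3 CPM, with a median of 60.5, in the wild types. The groups did not overlap, and the log2 fold change was -0.70 (SE 0.115, adjusted p = 0.000510).

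Ccdc114, the other coiled-coil core subunit, was at 66.6, 79.3, 78.8, 86.6, 101 and 93.9 CPM in the Rfx2 knockouts and between 94.6 and 146 CPM, with a median of 123, in the wild types. Knockout replicate 5 was the only knockout above the lowest wild type, replicate 1. The log2 fold change was -0.56 (SE 0.108, adjusted p = 0.00138).

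Armc4 (ENSMUSG00000061802), the armadillo-repeat subunit, lies on the minus strand of chromosome 18 from 7088209 to 7297936. It was at 9.36, 12.2, 11.1, 8.81, 8.58 and 5.86 CPM in the Rfx2 knockouts and between 7.38 and 22.9 CPM, with a median of 13.95, in the wild types. The groups overlapped, since wild-type replicate 1 lay below 5 of the 6 knockouts, and the log2 fold change of -0.64 (SE 0.223) was called at an adjusted p of 0.0392. The call did not hold with limma-voom (0.0778) or in the fit of all 34 libraries (0.109). It was also lost without knockout replicate 1 (0.0682), 4 (0.0725), 5 (0.0763) or 6 (0.0857), and without wild-type replicate 2 (0.0709), 3 (0.0690), 4 (0.0550), 6 (0.0516), 7 (0.0559) or 8 (0.0618).

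Efcab1, encoding calaxin, was at 23.2, 33.0, 32.6, 28.0, 27.6 and 20.9 CPM in the Rfx2 knockouts and at 19.8, 45.4, 58.4, 34.8, 25.3, 28.3, 24.8 and 32.3 CPM in the wild types. The wild types spanned the whole knockout range, and the log2 fold change was -0.31 (SE 0.219, adjusted p = 0.302). Wild-type replicate 1 was the lowest of the 8 wild types, and replicate 3 the highest, for all 5 docking genes.

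**Figure D2:**
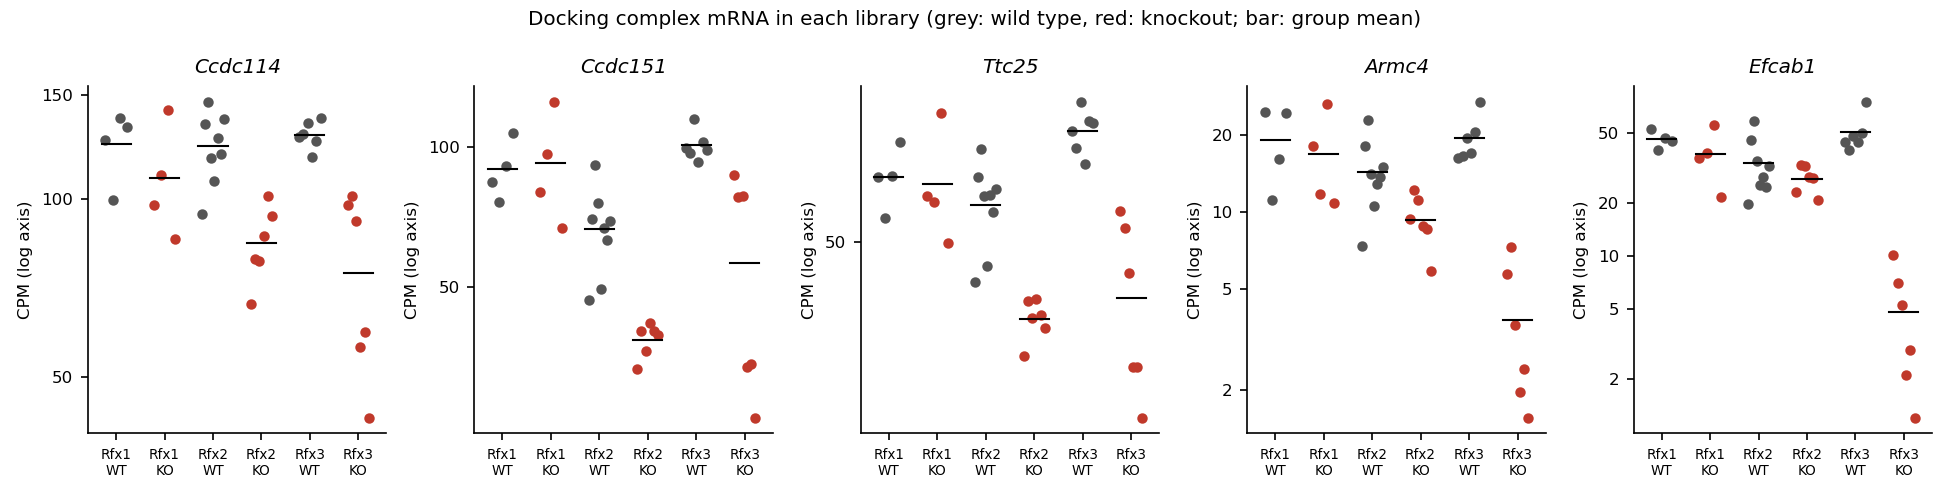
CPM (log axes) of each docking gene in all 34 libraries, by line and genotype; each point is a library and each bar a group mean. The Rfx3 knockouts lie below all Rfx3 wild types for every gene, furthest for Efcab1, at 1.21 to 10.1 against 40.2 to 75.1 CPM.

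In the Rfx3 knockouts all 5 docking genes fell, but by very unequal amounts: Efcab1 to 9.45% of wild type, Armc4 to 19.1%, and Ttc25, Ccdc114 and Ccdc151 to between 49.7% and 57.9%. Of all 14340 genes tested, 23.5% were called, 12.9% lower (1857 genes) and 10.6% higher (1517 genes), a split that became 1614 lower and 2074 higher with upper-quartile scaling. All 6 knockouts lay below all 6 wild types for each docking gene. The share of all genes with this separation was not counted. Other axonemal genes, such as Ccdc40 and Dnah5, showed it as well, while Dnah17 did not. The targeted gene, Rfx3, was at 25.2 to 51.8 CPM in the knockouts and at 157 to 206 CPM in the wild types (log2 fold change -2.14, SE 0.148).

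Efcab1 was at 10.1, 7.02, 5.29, 2.13, 2.93 and 1.21 CPM in the Rfx3 knockouts and at 44.2, 40.2, 47.9, 44.5, 49.9 and 75.1 CPM in the wild types. The highest knockout was thus far below the lowest wild type, and the log2 fold change was -3.40 (SE 0.425, adjusted p = 0.000661). Only 8 of the 14340 genes tested had a lower log2 fold change.

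Armc4 was at 5.73, 7.32, 3.61, 1.97, 2.42 and 1.56 CPM in the Rfx3 knockouts and at 16.3, 16.6, 19.5, 17.0, 20.6 and 27.1 CPM in the wild types. Its log2 fold change was -2.39 (SE 0.340, adjusted p = 0.00121), with 33 genes lower. Wild-type replicate 6 was the highest of its group for Armc4, Efcab1 and, by a small margin, Ccdc114.

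Ttc25 was at 56.8, 52.8, 43.9, 29.8, 29.8 and 24.2 CPM in the Rfx3 knockouts and at 79.0, 73.6, 89.0, 68.8, 82.1 and 81.6 CPM in the wild types. Its log2 fold change was -1.01 (SE 0.190, adjusted p = 0.00443). Ccdc114 was at 97.9, 101, 92.0, 56.3, 59.8 and 42.8 CPM against 127, 129, 135, 118, 125 and 137 CPM. The drop in Ccdc114, -0.79 on the log2 scale (SE 0.186, adjusted p = 0.0111), was uneven across libraries, as replicates 1 to 3 lay far closer to wild type than replicates 4 to 6.

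Ccdc151 was at 87.4, 78.3, 78.8, 33.7, 34.2 and 26.2 CPM in the Rfx3 knockouts and at 99.8, 97.2, 115, 93.0, 103 and 98.7 CPM in the wild types. The knockouts fell into 2 sets of 3 with a wide gap between them, and the log2 fold change was -0.85 (SE 0.277, adjusted p = 0.0420). The call did not hold with a term for the mean log2 CPM of the oligodendrocyte markers (edgeR adjusted p = 0.105). It was also lost without knockout replicate 4 (0.0848), 5 (0.0844) or 6 (0.0658). The same was true without wild-type replicate 1 (0.0715), 2 (0.0677), 3 (0.0871), 4 (0.0590), 5 (0.0727) or 6 (0.0616).

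**Figure D3:**
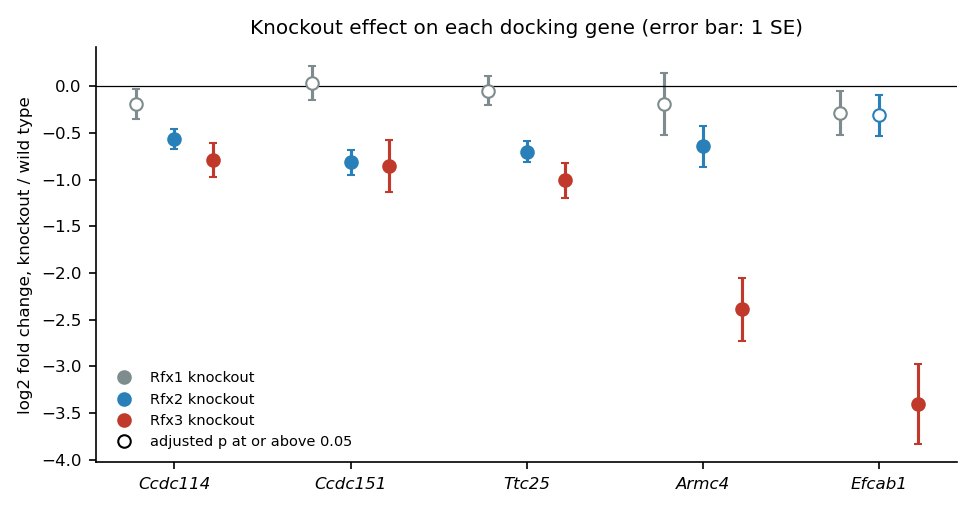
Log2 fold change of knockout over wild type for each docking gene in the 3 lines, with 1 SE; open symbols have an adjusted p at or above 0.05. The Rfx3 values for Armc4 and Efcab1, -2.39 and -3.40, stand far below the others.

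The 2 sets of Rfx3 knockout libraries differed in the regulators of multiciliation as well. Foxj1, the transcription factor that switches on motile cilia genes, was at 1473, 1437 and 1394 CPM in knockout replicates 1 to 3 and at 754, 755 and 677 CPM in replicates 4 to 6, against 1431 to 1714 CPM in the wild types (log2 fold change -0.53, SE 0.198, adjusted p = 0.0706). Mcidas, a coregulator that starts multiciliation, was at 93.2, 90.5 and 66.7 CPM and then at 19.8, 22.2 and 13.2 CPM, against 68.3 to 111 CPM (log2 fold change -0.88, adjusted p = 0.162). In replicates 1 to 3, in which Foxj1 was at 90.1% to 95.2% of the wild-type mean, Efcab1 was at 10.9% to 20.7% and Armc4 at 19.1% to 38.3%, while Ccdc151 was at 77.6% to 86.6%. In replicates 4 to 6, Foxj1 was at 43.7% to 48.8%, Efcab1 at 2.59% to 6.07%, Armc4 at 8.45% to 12.9% and Ccdc151 at 26.0% to 33.9%.

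With replicates 4 to 6 left out, all 5 genes were still called lower, where 6.89% of all genes were called, 4.96% lower. The values ran from -0.31 for Ccdc151 (adjusted p = 0.0453) to -1.81 for Armc4 (adjusted p = 0.00368) and -2.73 for Efcab1 (adjusted p = 0.000775). With replicates 1 to 3 left out, 56.0% of all genes were called, 28.2% lower. The docking values were then -1.69 for Ccdc151, -3.28 for Armc4 and -4.54 for Efcab1, and Ccdc114 moved from -0.40 in the first of these fits to -1.28 in the second. Both of these divisions were chosen after the data were seen, so they describe the spread and add no test. The ratio to Foxj1, on the log2 scale, was -8.05 ± 0.642 for Efcab1 in the Rfx3 knockouts (SD, n = 6) and -4.97 ± 0.317 in the wild types, and -8.27 ± 0.416 against -6.33 ± 0.265 for Armc4. It was also lower in the Rfx3 knockouts for Ttc25 (-4.76 ± 0.125 against -4.30 ± 0.0748), Ccdc151 (-4.34 ± 0.239 against -3.94 ± 0.0443) and Ccdc114 (-3.84 ± 0.122 against -3.59 ± 0.0572). In the Rfx2 line the same ratio was -4.77 ± 0.249 in knockouts and -5.13 ± 0.296 in wild types for Efcab1. There it was -3.16 ± 0.185 against -3.19 ± 0.0910 for Ccdc114 and -4.27 ± 0.0637 against -4.09 ± 0.0915 for Ccdc151. For Ttc25 it was -4.36 ± 0.0611 against -4.28 ± 0.0673, and for Armc4 -6.35 ± 0.394 against -6.34 ± 0.246.

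**Figure D4:**
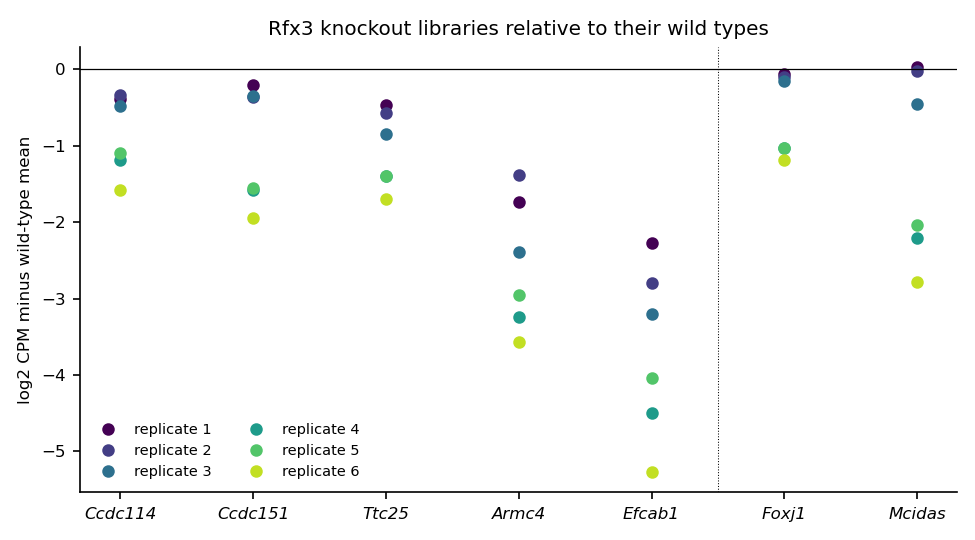
Log2 CPM of the docking genes, Foxj1 and Mcidas in each Rfx3 knockout library, minus the mean of the Rfx3 wild types; 0 is the wild-type mean. Replicates 1 to 3 are near 0 for Foxj1, yet are well below it for Armc4 and Efcab1.

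The unequal change was measured within each library as the log2 CPM of Efcab1 minus the mean of the other 4 docking genes, by an exact two-sided permutation test in each line with Benjamini-Hochberg adjustment over the 3 lines. In the Rfx3 line this difference was -2.75 ± 0.507 in knockouts (SD, n = 6) and -0.44 ± 0.238 in wild types (n = 6), a shift of -2.31 (exact p = 0.00216, the smallest that 924 arrangements allow, adjusted p = 0.00649). Efcab1 was set against its partners with its Rfx3 fall already known, so this p is not independent support for that shift. In the Rfx2 line it moved the other way, from -0.65 ± 0.253 (n = 8) to -0.24 ± 0.171 (n = 6), a shift of 0.41 (exact p = 0.00733, adjusted p = 0.0110). The groups overlapped, as wild-type replicates 2 (-0.35) and 3 (-0.24) lay within the knockout range of -0.50 to -0.013. Earlier Rfx2 results were also known when the measure was chosen, so this p is not independent support either. Over the 6 same-numbered Rfx2 pairs, a test added after seeing the data, the difference was higher in the knockout in 6 of 6, by 0.34 ± 0.0979 (SD; exact two-sided sign-flip p = 0.03125, the smallest that 64 arrangements allow, adjusted p = 0.0469). In the Rfx1 line the shift was -0.24 (exact p = 0.143, adjusted p = 0.143, with 0.0286 the smallest that 70 arrangements allow). Relative to its partners, Efcab1 was thus on average higher in the Rfx2 knockouts and lower in the Rfx3 knockouts than in their wild types.

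**Figure D5:**
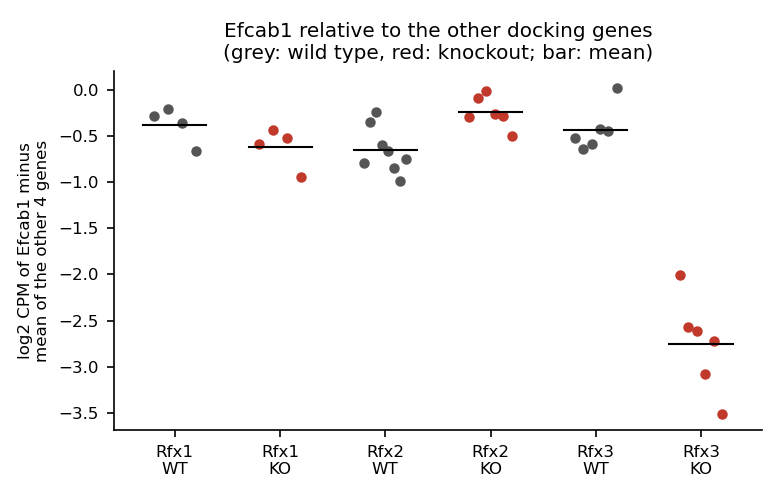
Log2 CPM of Efcab1 minus the mean log2 CPM of the other 4 docking genes in each library, with group means as bars. The Rfx3 knockouts average -2.75 against -0.44 in their wild types, and the Rfx2 knockouts -0.24 against -0.65.

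The knockout effects of the lines were compared directly in the fit of all 34 libraries. Between Rfx2 and Rfx3, 3.84% of all genes were called different, and 2 of the 5 docking genes were among them. The Rfx2 effect minus the Rfx3 effect was 1.76 on the log2 scale for Armc4 (SE 0.407, adjusted p = 0.00994) and 3.11 for Efcab1 (SE 0.424, adjusted p = 2.08e-05). For Ccdc114 it was 0.24 (SE 0.212), for Ccdc151 0.05 (SE 0.293) and for Ttc25 0.32 (SE 0.217), with adjusted p from 0.444 to 0.944. The standard errors leave room for sizeable differences in these 3 genes, so a like response was not shown.

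Between Rfx3 and Rfx1, 7.75% of all genes and 3 docking genes were called. The Rfx3 effect minus the Rfx1 effect was -3.11 for Efcab1 (SE 0.493, adjusted p = 0.000433), -2.20 for Armc4 (SE 0.472, adjusted p = 0.00687) and -0.96 for Ttc25 (SE 0.251, adjusted p = 0.0202). Ttc25 lost this call without Rfx1 knockout replicate 3 (0.0885) or Rfx1 wild-type replicate 2 (0.0608). Ccdc114 (-0.59, adjusted p = 0.123) and Ccdc151 (-0.88, adjusted p = 0.0949) were not called, although Ccdc151 was without Rfx3 knockout replicate 1 (0.0299) or 2 (0.0474). Between Rfx2 and Rfx1, 0.829% of all genes were called and none of the 5 docking genes, of which Ccdc151 (-0.83, unadjusted p = 0.0177 by edgeR) and Ttc25 (-0.63, unadjusted p = 0.0148 by edgeR) had an unadjusted p under 0.05, and DESeq2 also called 0.

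Most of the tested genes of related axonemal lists fell in the Rfx2 and Rfx3 knockouts, and none was called in the Rfx1 line. Of the outer arm dynein subunits tested, 8 of 9 fell in the Rfx2 knockouts and 6 of 8 in the Rfx3 knockouts. Those with the smallest p were Nme8, a thioredoxin-domain protein of the arm, in Rfx2 (-2.36, SE 0.339, adjusted p = 0.000230) and Dnah5, a dynein heavy chain, in Rfx3 (-1.61, SE 0.277, adjusted p = 0.00287). Nme8 was near the floor, averaging 0.0817 CPM in Rfx2 knockouts (n = 6) and 0.440 CPM in wild types (n = 8). Dnah17, another heavy chain, was called in neither line (-0.13 in Rfx2, adjusted p = 0.527, and 0.35 in Rfx3, adjusted p = 0.359). Of the docking partners and paralogues, 7 of 7 fell in Rfx2 and 6 of 7 in Rfx3, led by Ift46, an intraflagellar transport subunit (-0.57, SE 0.0744, adjusted p = 0.000121), and Cfap53, a protein inside the doublet (-1.49, SE 0.302, adjusted p = 0.00596).

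Of the preassembly factors, which build dynein arms in the cytoplasm, 13 of 13 fell in Rfx2 and 10 of 13 in Rfx3. The leading genes were Pih1d2 in Rfx2 (-0.89, SE 0.123, adjusted p = 0.000184) and Dnaaf3 in Rfx3 (-0.84, SE 0.181, adjusted p = 0.00784). Of the inner arm and nexin tethers, 6 of 6 fell in both lines, led by Drc1, of the nexin-dynein regulatory complex, in Rfx2 (-0.67, SE 0.0936, adjusted p = 0.000193) and Ccdc40, of the ruler that spaces the inner arms, in Rfx3 (-1.40, SE 0.281, adjusted p = 0.00581). The median log2 fold change of the docking genes was -0.64 in Rfx2 and -1.01 in Rfx3. It was -0.88 and -1.06 for the outer arm subunits, -0.76 and -0.75 for the preassembly factors, and 0.01 and 0.02 for all genes tested. For the docking partners and paralogues it was -0.65 and -0.79, and for the tethers -0.76 and -0.97. The docking median was thus the smallest fall of these axonemal lists in Rfx2. In Rfx3 it lay between those of the tethers and the outer arm subunits.

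Of the multiciliation regulators, 6 of 10 fell in Rfx2 and 3 of 10 in Rfx3. Foxj1 was at 748 ± 64.3 CPM in Rfx2 knockouts (SD, n = 6) and at 1128 ± 194 CPM in wild types (n = 8), with a log2 fold change of -0.62 (SE 0.112, adjusted p = 0.000978), and Mcidas fell by 1.49 on that scale (SE 0.243, adjusted p = 0.000480). In the Rfx3 knockouts the 3 that fell were the Rfx genes: Rfx3 itself, Rfx2 (-0.56, adjusted p = 0.00861) and Rfx1 (-0.45, adjusted p = 0.0111). In the Rfx2 knockouts Rfx1 (-0.11, adjusted p = 0.220) and Rfx3 (-0.06, adjusted p = 0.652) were not called.

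In RefSeq windows, an X-box with at most 1 mismatch was present for 3 of 9 outer arm subunits, 4 of 6 docking partners and paralogues, 5 of 9 preassembly factors and 2 of 6 tethers. Ccdc151 held one of the 2 docking windows, and Ccdc114 did not. Of all 27025 genes with a window, 5.47% held such a match. These are counts of letters in short windows, and no factor's binding was measured.

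Several cell type marker lists also differed between genotypes. Ependymal markers were present in every library, with a summed level of 777 to 999 CPM in Rfx2 knockouts against 1061 to 2039 in wild types, and of 761 to 1861 in Rfx3 knockouts against 1933 to 2351 in wild types. Of those tested, 7 of 7 fell in Rfx2 and 5 of 8 in Rfx3. The summed level separated the genotypes in both lines, as did Ccdc151 and Ttc25. A sum here is a plain total of CPM, so its most abundant genes weigh most. Foxj1 made up most of the ependymal sum, averaging 748 and 1128 CPM in Rfx2 knockouts and wild types, and 1082 and 1549 in Rfx3. In Rfx2 knockouts and wild types Gfap, of the astrocyte list, averaged 5164 and 4305 CPM. Cnp, of the oligodendrocyte list, averaged 222 and 315 CPM there. The sums do not measure the share of a cell type.

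Astrocyte markers rose for 4 of 8 genes in Rfx2 and 3 of 7 in Rfx3. Their summed level was 6184 to 11339 CPM in Rfx2 knockouts against 4777 to 8787 CPM in wild types. In the Rfx3 line it was 2599 to 3562 CPM in knockout replicates 1 to 3, 5009 to 5352 CPM in replicates 4 to 6 and 2098 to 4829 CPM in the wild types. Summed oligodendrocyte lineage markers were at 316 to 727 CPM in Rfx2 knockouts against 410 to 675 CPM (1 fell and 1 rose of 9), and at 627 to 903 CPM in Rfx3 knockouts against 561 to 808 CPM (2 rose of 9).

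Microglial markers, summed to 386 to 1295 CPM in Rfx2 knockouts against 377 to 1206 CPM and to 62.5 to 298 CPM in Rfx3 knockouts against 59.8 to 469 CPM, had 0 of 9 called in either line by edgeR. Of the choroid plexus markers, 3 of 4 fell in Rfx3, among them Kcne2, a potassium channel subunit (-0.99, adjusted p = 0.00887), and 1 of 4 in Rfx2, Clic6. Their summed level was 32.1 to 82.7 CPM in Rfx3 knockouts against 72.6 to 97.0 CPM, and 39.8 to 59.0 CPM in Rfx2 knockouts against 47.8 to 63.7 CPM. Of the endothelial and mural markers, 1 of 2 rose in each line, Pdgfrb, a pericyte receptor (0.65 in Rfx2, adjusted p = 0.00198, and 0.78 in Rfx3, adjusted p = 0.00286). Their summed level was 144 to 212 CPM in Rfx2 knockouts against 70.8 to 151 CPM. In Rfx3 it was 74.9 to 134 CPM in knockouts against 58.4 to 74.3 CPM, groups that did not overlap. Pdgfrb made up most of that sum, averaging 111 CPM in Rfx3 knockouts and 64.3 CPM in wild types, so the separation mostly follows Pdgfrb.

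Neuroblast and neuron markers summed to 60.7 to 192 CPM in Rfx3 knockouts against 60.8 to 77.3 CPM, with 1 fallen and 2 risen of 9. Among the risen was Stmn2, a neuronal microtubule regulator (1.22, edgeR adjusted p = 0.00948). Stmn2 made up most of that sum, averaging 101 CPM in Rfx3 knockouts and 43.2 CPM in wild types. In Rfx2 the neuroblast and neuron markers summed to 136 to 200 CPM against 69.2 to 207 CPM, with 0 of 8 called by edgeR. Of the cycling markers, 0 of 5 were called in either line. None of the ependymal, astrocyte, oligodendrocyte, neuronal, microglial or choroid plexus markers was at 0 in a whole group. Of the 5 endothelial and mural markers listed, the Rfx1 wild types, the Rfx2 knockouts and both Rfx3 groups each had 1 at 0 in every library. The part of cell makeup in the falls of the docking genes was not tested, and an oligodendrocyte marker term does not measure the share of multiciliated cells. With that term all 5 kept their direction, but Ccdc151 lost its call in Rfx3 (-0.65, edgeR adjusted p = 0.105). With Rfx2 replicates 1 to 3 of both genotypes left out, a choice made after seeing that marker level in these knockouts (616 to 727 CPM), the same number of docking genes, 4, fell, Armc4 by 0.79 (adjusted p = 0.00902), where 27.5% of all genes were called, 15.0% lower.

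The genes beside the docking genes moved less, or the other way. Prkcsh, a glucosidase subunit that starts 172 bases from Ccdc151 on the opposite strand, was at 135 ± 4.78 CPM in Rfx2 knockouts (SD, n = 6) and 139 ± 5.08 in wild types (n = 8), and at 151 ± 23.9 against 142 ± 2.99 CPM in the Rfx3 line (n = 6 and 6). Neither difference was called (-0.06, adjusted p = 0.129, and 0.08, adjusted p = 0.511), while Ccdc151 fell in both lines. The RefSeq windows of Prkcsh and Ccdc151 share 147 bases, which do not include the exact X-box match of Ccdc151. The closest run in the Prkcsh window had 3 mismatches. That window was placed on a RefSeq start that lies further from Ccdc151 than the GENCODE start used for the distance above. The exact match lies within 250 bases before the GENCODE start of Prkcsh, so the windows do not show that Prkcsh lacks it.

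Rgl3, on the other side of Ccdc151, rose in the Rfx3 knockouts (0.42, adjusted p = 0.00912). Mkx, a neighbour of Armc4, rose there as well (1.08, SE 0.269, adjusted p = 0.0139), as did Emp3 beside Ccdc114 (0.45, adjusted p = 0.0479). Cnp, an oligodendrocyte enzyme gene 2336 bases beyond Ttc25, fell in the Rfx2 knockouts (-0.53, SE 0.0786, adjusted p = 0.000282), with 6 of 6 knockouts below every wild type, and was not called in Rfx3 (-0.30, adjusted p = 0.159). Acly, on the other side of Ttc25, rose slightly in Rfx2 (0.09, adjusted p = 0.0387). Abcc6 beside Ccdc114 and Mpp7 beside Armc4 were called in neither line, and the genes nearest to Efcab1, Snai2 and Gm21897, did not pass the filter on low counts.

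The levels of the docking genes were compared pairwise across all 34 libraries, which share lines, genotypes and culture makeup. Pearson's r of log2 CPM ran from 0.61 for Ccdc151 with Efcab1 to 0.96 for Ccdc151 with Ttc25, with 0.95 for Armc4 with Efcab1, 0.91 for Ccdc114 with Ttc25 and 0.85 for Armc4 with Ttc25. Over the 18 wild types, centred within each line, these pairs had r of 0.70, 0.96, 0.85, 0.90 and 0.86 in the same order, so Armc4 with Efcab1 stood no higher there than Armc4 with Ttc25. These values describe the libraries and carry no test.

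The genes whose levels were most like each docking gene over the 34 libraries also differed by member. For Efcab1 they were Cfap73 (r = 0.984), Vwa3a (0.969) and Scnn1a (0.957), and for Armc4 they were Cfap73 (0.972), Spag17 (0.967) and Vwa3a (0.960), so 2 of the 3 were shared. For Ccdc151 they were Zmynd10 (0.995), Lrrc23 (0.993) and Cfap206 (0.992), for Ttc25 Maats1 (0.991) and Cfap70 (0.989), and for Ccdc114 Rsph10b (0.965), Spag8 (0.965) and Fam47e (0.961). Cfap73 was at 1.05 CPM on average in the Rfx3 knockouts and at 10.9 CPM in the wild types, a log2 fold change of -3.39 next to -3.40 for Efcab1, and in the Rfx2 line it was not called (-0.48, adjusted p = 0.102). Scnn1a, also like Efcab1, fell in Rfx3 (-1.62, adjusted p = 0.00109) and was not called in Rfx2 (0.11, adjusted p = 0.468). Zmynd10, most like Ccdc151, changed by nearly equal amounts in the Rfx2 (-1.20) and Rfx3 (-1.16) lines. These genes were picked for likeness over the same libraries, knockouts included, so like fold changes follow in part from the choice.

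Over the 18 wild types, centred by line, the nearest genes were others. They were Dnah10 (r = 0.943), Rgs22 (0.930) and Lama3 (0.919) for Efcab1, Dytn (0.933), Erich3 (0.931) and Cyb561 (0.929) for Armc4, and Tmem107 (0.996), Ift172 (0.987) and Ccdc65 (0.986) for Ccdc151. For Ttc25 they were Dnali1 (0.977), Lrrc74b (0.974) and Drc1 (0.973), and for Ccdc114 Mapk15 (0.957), Armh1 (0.943) and Catip (0.936). None of these was among the nearest over all 34 libraries.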

How the data were processed

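RNA-seq of 34 libraries was deposited by the authors as raw read counts per Ensembl gene, without normalization. Per the submitters' processing notes, CASAVA 1.8.2, STAR 2.4, featureCounts 1.4.6 and GRCm38 were used; the settings used are not known here. Groups came from the sample titles. The 3 lines were fitted separately in edgeR 4.0.16 (R 4.3.3): filterByExpr (minimum count 10, minimum total 15), TMM, two-sided quasi-likelihood F test, Benjamini-Hochberg adjusted p below 0.05 over all genes kept. Contrasts between lines and the wild-type test used a fit of all 34 libraries. Log2 CPM used a prior count of 2. The fits were also run on simulated counts with known changes. These had the same spread for all genes and no sets among the replicates. They therefore do not test the fits under a split like that of the Rfx3 knockouts. Alternatives included DESeq2 1.42.0 and limma 3.58.1. Exon lengths came from GENCODE M21, which matched 21583 of 21647 genes, and promoter windows from RefSeq.

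The members and lists were chosen with earlier results of these data known. By rule, the text names all members, their nearest genes on each side, the 3 most like each, Foxj1, Mcidas and the Rfx genes, and per list the gene of smallest p in Rfx2 and Rfx3. An item that this rule would name is not reported here. In the Rfx2 line, same-numbered knockouts and wild types deviated together (correlations of 0.16 to 0.61). Knockout replicates 3, 5 and 6 nonetheless correlated best with a wild type of another number. The main fits and the permutation tests did not use the numbers, so the main p-values in Rfx2 ignore any pairing. For Rfx2, the replicate block and the same-numbered pairs were alternatives that used them. In Rfx1 (-0.09 to 0.45) and Rfx3 (-0.36 to 0.20) the numbers were not taken to pair samples.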

Additional observations from a re-analysis of the deposited data

Results flagged for a closer look

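Efcab1 in Rfx3 wild-type replicate 6, at 75.1 CPM, stood apart from the other 5 wild types (40.2 to 49.9 CPM); 30 groups of libraries were examined in this way, and chance alone marks about 1 group in 20. This library also had the highest astrocyte marker sum of its group, 4829 CPM against 2098 to 2759 CPM in the others, the highest microglial sum, 469 CPM against 59.8 to 145 CPM, and the highest oligodendrocyte lineage sum, 808 CPM against 561 to 623 CPM. Their part in the Efcab1 level was not tested. With this library left out, the Rfx3 effect on Efcab1 was -3.25 on the log2 scale (edgeR adjusted p = 0.00145).

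The knockout effect differed between lines in 5 tests of the difference itself. Between Rfx2 and Rfx3 it differed by 1.76 on the log2 scale for Armc4 and by 3.11 for Efcab1. Between Rfx3 and Rfx1 it differed by -2.20 for Armc4, -0.96 for Ttc25 and -3.11 for Efcab1. The Rfx3 libraries enter all 5 of these tests, so they are not independent of each other.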

How the results depend on the processing

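The number of docking genes called lower was 0 in Rfx1, 3 to 4 in Rfx2 and 4 to 5 in Rfx3 under every alternative run, and the shifts of Efcab1 against its partners kept their side of the threshold. With a replicate block, 4 docking genes fell in Rfx2 and 5 in Rfx3, and no member's call changed; over all genes the block gave 4275 calls in place of 4626 in Rfx2, 2205 in place of 3374 in Rfx3, and 0 in place of 1 in Rfx1. In Rfx1 and Rfx3 replicate numbers were not taken to pair the libraries, and in no line did every knockout correlate best with its own number. Over all genes, Rfx1 had 9 calls with DESeq2, 2 without the low-count filter, 6 in the fit of all 34 libraries and 0 with the oligodendrocyte term, and from 0 to 9 with single libraries left out. Rfx3 had 5367 calls in the fit of all 34 libraries, 996 with knockout replicates 4 to 6 left out, 8189 with replicates 1 to 3 left out, 5549 without knockout replicate 3 and 2139 without wild-type replicate 3. Leaving out single libraries, the number of docking genes called across wild types ran from 0 to 3, the Rfx1 effect on Ccdc151 from -0.15 to 0.17 and on Ttc25 from -0.22 to 0.058. The Rfx2 effect minus the Rfx3 effect on Ccdc151 ran from -0.12 to 0.22, and the Rfx2 effect minus the Rfx1 effect on Efcab1 from -0.22 to 0.25, with -0.00516 by DESeq2. None of these reversing values was called, and the cause was not tested. Armc4 and Efcab1 in the Rfx3 knockouts rest on as few as 40 and 31 reads in a library.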
